A study of Saccharomyces cerevisiae with 4 samples.

Results

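The genes described here are the small nucleolar RNA (snoRNA) and small nuclear RNA (snRNA) genes of budding yeast, taken as every nuclear gene of either biotype in the R64 gene table, each with 500 bp on both sides. The rule gave 82 of 6431 nuclear genes, 76 for snoRNAs and 6 for snRNAs, and it used no measured value. NME1, the gene of the RNase MRP RNA, carries another biotype and was not counted. The study immunoprecipitated HA-tagged chromatin proteins with an anti-HA antibody and sequenced the recovered DNA (ChIP-seq), to map the related histone deacetylases Sir2 and Hst1. The immunoprecipitations (IPs) came from a Sir2-HA strain (LRY1926), an Hst1-HA strain (LRY0558) and, as a mock, the untagged parental strain (LRY1009), each represented by 1 peak list. All cultures, in the rich glucose medium YPD at 30 °C, were taken in early log phase and crosslinked with 10 mM dimethyl adipimidate and then 1% formaldehyde. Each tagged protein was thus seen in 1 strain, and the sources used here do not say how the tag was added or what else the genotypes carry.

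snoRNAs guide the chemical modification of ribosomal RNA in the nucleolus. Box C/D snoRNAs direct ribose methylation, box H/ACA snoRNAs direct the conversion of uridine to pseudouridine, and a few, such as U3, take part in the cleavage of the ribosomal RNA precursor. The snRNAs are the RNA cores of the spliceosome. In yeast most of these genes have their own promoters for RNA polymerase II, several are transcribed together as clusters, a few lie inside introns and are released from the spliced host transcript, and U6 and SNR52 are transcribed by RNA polymerase III. Sir2 is the enzyme of the SIR silencing complex, and Hst1 acts with the DNA-binding repressor Sum1.

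Hst1 had a summit near a smaller share of snoRNA and snRNA genes than of all nuclear genes, while the Sir2 count was close to its background. An Hst1 summit lay within 500 bp of 3 of 82 genes (3.66%, 95% exact Clopper-Pearson interval 0.761 to 10.3), namely SNR45, SNR48 and SNR17A, against a background of 14.5% of all 6431 nuclear genes. A Sir2 summit lay near 1 of 82 (1.22%, interval 0.0309 to 6.61), SNR78, against 2.05% of all nuclear genes. The mock IP had a summit near 0 of 82 (interval 0 to 4.40), against 0.0466%. No gene had peaks of both Sir2 and Hst1 in its window, and 74 of 82 windows held not 1 bp of any peak. Neither count was made for all nuclear genes, so neither has a background here. Hst1 peaks reached only 6 of the 82 windows and Sir2 peaks 2, so the lack of a shared window is no result about the proteins. With 1 list per IP there is no replicate and no test, and the intervals cover counting error only. They also treat genes as independent, though the 82 windows merge into 68 loci, 7 of which hold 21 of the genes. The intervals may therefore be too narrow. Depth is unknown, since no read counts come with the lists, and a gene without a peak is one at which the caller reported none.

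Short genes have short windows, so the same count was made in 1 kb centred on each annotated start. By that measure Hst1 had 3 of 82 snoRNA and snRNA genes (3.66%, interval 0.761 to 10.3), against 10.9% of all nuclear genes. Sir2 had 1 of 82, against 0.995%. Of protein-coding genes alone, 9.88% had an Hst1 summit by that measure, a share inside the interval. Their share by the first measure was 13.6%, which lies above the interval. The Hst1 share was under the background in both measures, while the Sir2 share was under it in the first and over it in the second. By sequence, Hst1 peaks covered 2.53% of the 85.6 kb of merged windows, where they covered 2.78% of the windows of all nuclear genes. Sir2 peaks covered 0.259%, where they covered 1.8% of all. The windows of all nuclear genes include those near chromosome ends, while the closest member lay 38811 bp from an end. Coverage without the genes near chromosome ends was not computed. Hst1 summits numbered 4 in these windows, or 0.0467 per kb, beside 0.0526 per kb for all nuclear genes. Sir2 had 1 summit, or 0.0117 per kb beside 0.0108, so its summit density was slightly over that of all nuclear genes while its coverage was under it. The windows differ in content, however, because 68.2% of the snoRNA and snRNA window sequence lay outside protein-coding genes, against 24.3% for all nuclear genes. In the sequence outside protein-coding genes, Hst1 had 0.0685 summits per kb near snoRNA and snRNA genes and 0.175 per kb over all gene windows, and Sir2 had 0.0171 and 0.0149. None of these differences was tested.

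**Figure D1:**
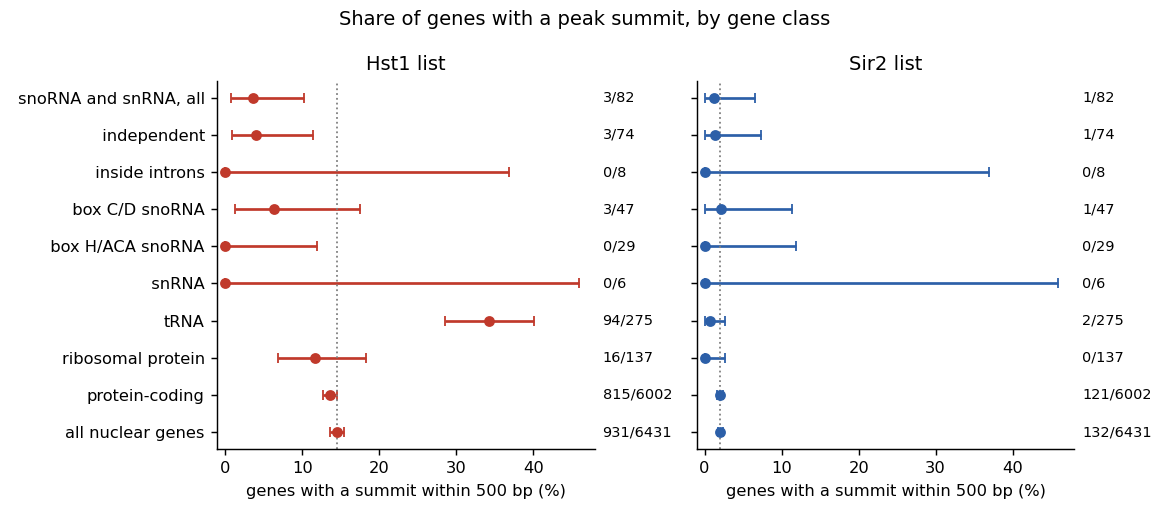
Share of genes (%) with an Hst1 (left) or Sir2 (right) summit within 500 bp of the gene, by gene class. Points are shares, bars are 95% exact Clopper-Pearson intervals, numbers at the right are genes with a summit over all genes of the class, and dotted lines mark all nuclear genes. The Hst1 share was 3.66% in snoRNA and snRNA genes and 34.2% in tRNA genes, and the intervals of the 8 genes inside introns and the 6 snRNA genes are wide.

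The strongest of the Hst1 peaks near snoRNA genes lay at SNR45, a box C/D snoRNA that guides acetylation of the small-subunit ribosomal RNA rather than methylation. The peak spanned sacCer3 chrXVI:821681-822472, covered all 172 bp of the gene (XVI, 821732 to 821903, plus strand) and had the authors' fold of 4.99 (−log10 q 117). It ranked 63 of 692 in the Hst1 list. Its summit, however, lay downstream of SNR45, 299 bp past the end of the gene and 418 bp upstream of the start of ASN1, which encodes asparagine synthetase and is read in the same direction. The peak thus spanned the snoRNA gene and part of the stretch between it and ASN1, with its highest point in that stretch.

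SNR48, a box C/D methylation guide (VII, 609584 to 609696, plus strand), had an Hst1 peak on both sides. The upstream peak (chrVII:609295-609600) had a summit 129 bp before the start, a fold of 1.99 (−log10 q 7.95), and it reached 17 bp into the gene. The downstream peak (chrVII:609855-610301) had a fold of 2.61 (−log10 q 18.5), with its summit 398 bp past the gene end and 470 bp upstream of ERG25, which encodes a methyl sterol oxidase. The upstream summit was the single case among these 4 Hst1 summits that lay ahead of a snoRNA gene and not within 500 bp upstream of a protein-coding gene. The nearest protein-coding gene to it was SPR3, a sporulation septin gene that ends 354 bp before it. These peaks ranked 452 and 232 of 692.

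SNR17A, one of the gene copies for U3 snoRNA (XV, 780107 to 780596, plus strand), was the single member with a summit within its own bases. That Hst1 peak (chrXV:780384-780605) was 222 bp long, of which 213 bp lay in the gene, and had a fold of 1.79, a −log10 q of 6.59 and rank 578 of 692. The summit lay 393 bp from the start of SNR17A and 406 bp upstream of DFR1, the dihydrofolate reductase gene. A stronger Hst1 peak (fold 3.62, rank 125) had its summit outside the window, 999 bp past the end of SNR17A and 54 bp beyond DFR1. SNR17B, the other U3 copy (XVI, 281056 to 281517, minus strand), had no Hst1 summit closer than 15688 bp. The copies share sequence, and whether reads of 1 were placed at the other was not tested.

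**Figure D2:**
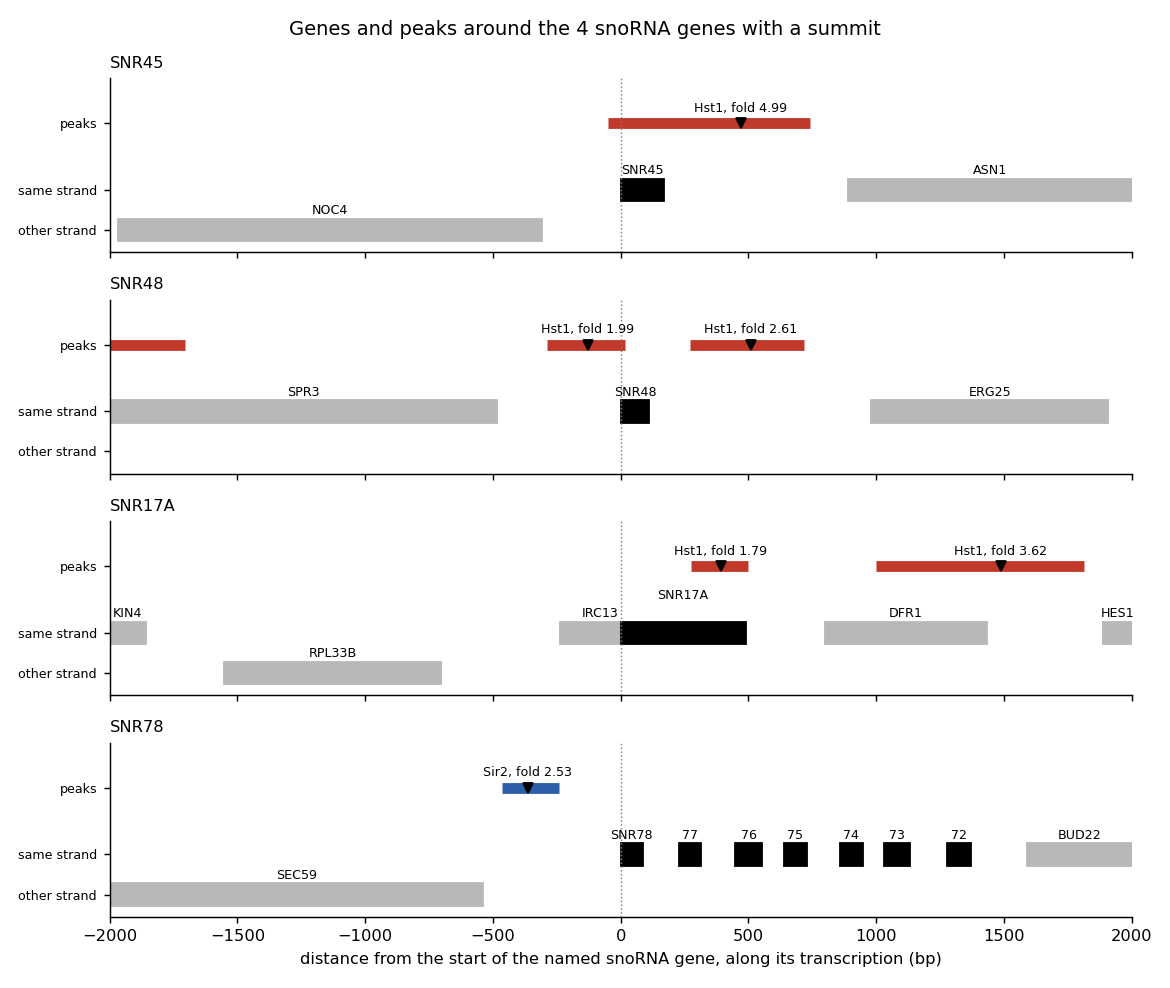
Genes and peaks within 2000 bp of the start of SNR45, SNR48, SNR17A and SNR78, drawn along the transcription of the named gene (x axis, bp). Black boxes are snoRNA genes, grey boxes are protein-coding genes, bars above are Hst1 (red) or Sir2 (blue) peaks, and triangles are summits with the authors' fold. SNR17A is drawn over the end of IRC13, which it overlaps. The Hst1 summits at SNR45 and the stronger one at SNR48 lie 418 and 470 bp before ASN1 and ERG25.

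Over the 4 Hst1 summits near snoRNA genes, 1 lay upstream, 1 in the gene and 2 downstream of the snoRNA, while 3 lay in the 500 bp upstream of a protein-coding gene. In the whole table, 8.41% of 6002 protein-coding genes (505) had an Hst1 summit in the 500 bp before the start. That is a share of genes, not of summits. How many of all 692 Hst1 summits lay in such a position was not counted, so 3 of 4 has no background here. The median fold of these 4 peaks was 2.30, with a range of 1.79 to 4.99, beside a median of 2.22 in the whole Hst1 list. SNR45 had a fold in the upper part of the list, and the weaker SNR48 peak and the SNR17A peak had folds under the list's median.

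The single Sir2 peak lay ahead of the largest snoRNA cluster. SNR78 to SNR72 are 7 box C/D methylation guides in a row on XIII, read in 1 direction and cut from a common precursor. The peak (chrXIII:296815-297036, 222 bp) had a fold of 2.53 (−log10 q 9.95), and it ranked 77 of 159 in the Sir2 list, whose median fold was 2.48. Its summit lay 364 bp upstream of SNR78, the first gene of the cluster, and 592 bp upstream of SNR77, whose window held 31 bp of the peak. It also lay 176 bp upstream of SEC59, a dolichol kinase gene read in the opposite direction, so the peak sat between divergent starts. Hst1 had no summit closer to SNR78 than 9432 bp. Because the 7 genes share this stretch, their distances to a Sir2 summit, 364 to 1640 bp, were 1 observation and not 7.

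**Figure D3:**
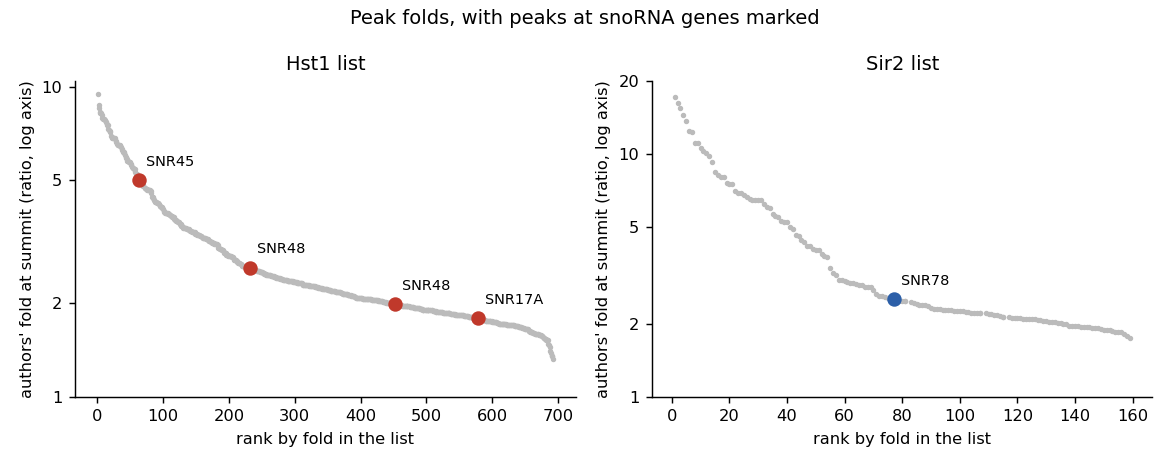
The authors' fold at the summit (ratio, log axis) against rank in the Hst1 list (left, 692 peaks) and in the Sir2 list (right, 159 peaks). Coloured points are the peaks with a summit within 500 bp of a snoRNA gene, and grey points are all others. SNR45 stands at 4.99 in the Hst1 list, and SNR78 at 2.53 is near the middle of the Sir2 list.

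A further 6 genes had an Hst1 summit between 500 and 1000 bp away. SNR11, a box H/ACA snoRNA, had an Hst1 summit 560 bp away (fold 2.15), 205 bp upstream of CMC4, a mitochondrial protein gene. The peak's edge reached 86 bp into the SNR11 window. SNR61, of the SNR57, SNR55 and SNR61 cluster, had one at 608 bp (fold 2.05) that lay 40 bp from a tRNA gene, YNCL0040W, and SNR55 was 819 bp from the same summit. SNR47 had one at 669 bp (fold 2), upstream of it and 305 bp past the end of NRG1, which encodes a repressor in glucose repression. Its peak covered 330 bp of the window, and that of SNR61 covered 159 bp. SNR46 had one at 756 bp (fold 1.90) inside the tRNA gene YNCG0023C. SNR161 had one at 950 bp (fold 2.38) inside TLC1, the telomerase RNA gene. Hst1 summits within 1000 bp were thus found at 9 of 82 genes (11%), beside 19.9% of all nuclear genes by the same measure, and Sir2 summits at 3 of 82 (SNR78, SNR77 and SNR76, all the same peak), beside 2.8%. With any part of a peak counted in the 500 bp window, Hst1 had 6 of 82 (7.32%), against 18.2% of all nuclear genes, and Sir2 had 2 of 82 (2.44%), against 3.51%.

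Genes not within a protein-coding gene on the same strand, called independent here, were compared with those inside introns. Clustered genes such as SNR78 to SNR72 count as independent by this rule. Of the 82 genes, 74 were independent and 8 lay within a protein-coding gene on the same strand, as SNR18 in EFB1, SNR38 in TEF4, SNR24 in ASC1, SNR39 in RPL7A, SNR59 in RPL7B, SNR44 in RPS22B, SNR54 in IMD4 and SNR191 in NOG2. The gene table gives no exons, so a place in the intron was read from the spans. EFB1 and TEF4 encode translation elongation factor subunits, RPL7A, RPL7B, RPS22B and ASC1 encode proteins of the ribosome, IMD4 encodes an IMP dehydrogenase, and NOG2 encodes a GTPase of ribosome assembly.

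All the summits found were at independent genes. Hst1 had 3 of 74 independent genes (4.05%, interval 0.844 to 11.4) and 0 of 8 genes inside introns (interval 0 to 36.9), against 14.5% of all nuclear genes. Sir2 had 1 of 74 (1.35%, interval 0.0342 to 7.30) and 0 of 8, against 2.05%. The interval for the 8 genes holds both backgrounds, so their 0 is no result about them. No bp of any peak reached these 8 windows. The hosts themselves had a summit in the 500 bp upstream of the start in 0 of 8 cases for both Hst1 and Sir2, against 8.41% and 0.467% of protein-coding genes, and 8 genes are too few to read a difference from this. The intervals of both kinds overlap, so with 8 genes inside introns a difference was not detectable. The kinds also differ in surroundings: 75.1% of the window sequence of independent genes lay outside protein-coding genes, against 9.40% for those inside introns.

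The nearest Hst1 summit to a gene inside an intron was 3928 bp from SNR191 (fold 1.91), then 5967 bp from SNR39 (1.97) and 6567 bp from SNR54 (1.91). It lay 11815 bp from SNR24, 17048 bp from SNR44, 19444 bp from SNR59, 22235 bp from SNR38 and 22646 bp from SNR18. The nearest Sir2 summit to any of the 8 was 20375 bp away, at SNR18. Apart from SNR191, then, each gene inside an intron was over 5000 bp from any summit of either list. Measured from the start, 41.7% of protein-coding genes lay within 5000 bp of an Hst1 summit, and 6.26% within 5000 bp of a Sir2 summit. With 8 genes inside introns, no difference from these shares can be read.

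By RNA class, the 3 genes with an Hst1 summit and the 1 with a Sir2 summit were box C/D snoRNA genes. Hst1 had 3 of 47 box C/D genes (6.38%, interval 1.34 to 17.5), 0 of 29 box H/ACA genes (interval 0 to 11.9) and 0 of 6 snRNA genes (interval 0 to 45.9), against 14.5% of all nuclear genes. Sir2 had 1 of 47, 0 of 29 and 0 of 6, against 2.05%. The Hst1 intervals of box C/D and snRNA genes hold this background, that of box H/ACA genes ends under it, and all of them overlap. In the 1 kb centred on the start, box H/ACA genes also had 0 of 29 (interval 0 to 11.9). That interval holds the background of the start measure, 10.9% of all nuclear genes. The classes were not tested against each other or against the background.

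The 6 spliceosomal RNA gene entries had no peak bp in their windows in any of the 3 lists, a count too small to set apart from the background. SNR6, which encodes U6, had the nearest Hst1 summit at 4331 bp (fold 2.60). SNR14, which encodes U4, had it at 8125 bp (1.86). The overlapping genes SNR7-L and SNR7-S, the long and short forms of U5, had it at 11727 bp (1.79), SNR19, which encodes U1, at 28676 bp (5.22), and LSR1, which encodes U2, at 36802 bp (2.11). Sir2 summits were farther, from 50992 bp at SNR14 to 129730 bp at SNR19. SNR52, the polymerase III snoRNA gene, had the nearest Hst1 summit at 8013 bp and the nearest Sir2 summit at 14882 bp. NME1, which is no member, had the nearest Hst1 summit at 9242 bp.

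Over all 82 genes, the nearest Hst1 summit lay 0 to 49102 bp from the gene, with a median of 9588 bp, and it was over 5000 bp away for 59 of them. The farthest was at SNR56, a box C/D gene on II. Measured from the start, the median distance was 9632 bp, beside 6716 bp for protein-coding genes, 4888 bp for ribosomal protein genes and 3630 bp for tRNA genes. By that measure, 28.0% of the 82 genes lay within 5000 bp of an Hst1 summit. The shares of protein-coding, ribosomal protein and tRNA genes were 41.7%, 50.4% and 54.9%. For Sir2 the median from the start was 86154 bp, beside 65958, 75338 and 60664 bp in the same order. The genes share chromosomes and clusters, so the distances are not independent. No member lay within 10 kb of a chromosome end, and the closest was 38811 bp from one.

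**Figure D4:**
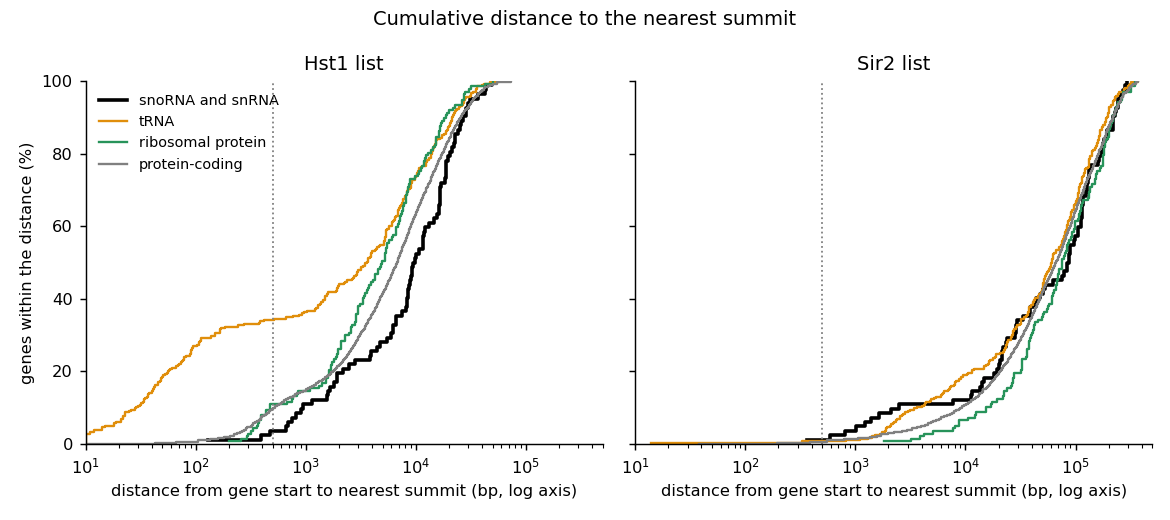
Cumulative share of genes (%) against the distance from the gene start to the nearest Hst1 (left) or Sir2 (right) summit (bp, log axis), for snoRNA and snRNA, tRNA, ribosomal protein and protein-coding genes. The dotted line marks 500 bp. In the Hst1 list the snoRNA and snRNA curve reaches 3.66% at 500 bp and 28.0% at 5000 bp, where that of tRNA genes reaches 34.2% and 54.9%.

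Counts by the same rule were made for tRNA genes and ribosomal protein genes. The background was again 14.5% of all nuclear genes for Hst1 and 2.05% for Sir2. tRNA genes, transcribed by RNA polymerase III, had an Hst1 summit within 500 bp at 94 of 275 (34.2%, interval 28.6 to 40.1) and a Sir2 summit at 2 of 275 (0.727%). The Hst1 interval of the tRNA genes lies wholly above that of the snoRNA and snRNA genes, which ends at 10.3%. Cytosolic ribosomal protein genes had an Hst1 summit at 16 of 137 (11.7%, interval 6.82 to 18.3), which overlaps it, and a Sir2 summit at 0 of 137. A tRNA gene reached into the windows of 4 members, SNR33, SNR67, SNR53 and SNR61, and 0 of these 4 had a summit of any list. With 4 genes this 0 cannot be set apart from the background.

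Promoters of genes for snoRNA and snRNA ribonucleoproteins were scored in the same lists. Of 38 protein-coding genes in 4 lists, Hst1 had a summit in the 500 bp upstream of 1, against a background of 8.41% of protein-coding genes, and Sir2 had 0, against 0.467%. With 38 genes these counts were not set apart from the background. The gene was SOF1, which encodes a protein of the U3 processome, with a summit 270 bp before the start (chrXII:127075-127457, fold 2.45, −log10 q 12.9, rank 268). The other 13 of 14 genes for the U3 processome and RNA processing, all 11 for box C/D particles, among them NOP1 (the methyltransferase fibrillarin), NOP56, NOP58 and SNU13, all 6 for box H/ACA particles, among them CBF5 (the pseudouridine synthase) and GAR1, and all 7 for Sm proteins had no such summit.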

How the data were processed

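The submitters' processing notes name BWA, MACS2 and the build sacCer3. The sources used here do not give versions, cutoffs, the control library of each call or any pooling of the 2 technical replicates named in the design text. If the mock IP served as control, background common to it and the other IPs is already absent. The authors' deposited lists (159 Sir2, 692 Hst1 and 3 mock IP peaks) give the fold enrichment at the summit (a ratio), −log10 p, −log10 q, and a score. The deposited score of every peak equals its −log10 q multiplied by 10, without decimals. Folds were compared only within a list.

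Summits were the peak start plus the deposited offset, written 1-based. Gene positions were those of RefSeq's R64 table, the assembly behind sacCer3, with strands read from the systematic names. The last gene or peak base stood for a chromosome's right end. Counts, intervals and coverage were computed with Python 3.11.15, pandas 2.3.3 and SciPy 1.17.1, and the scoring was tested on simulated peaks. The members and lists were chosen with earlier results of these data known. Named genes were every member with a summit or peak bp in its window, every snRNA gene, every gene inside an intron and every pathway gene with a promoter summit. SNR52, SNR17B, SNR56, the genes 500 to 1000 bp from a summit, the members with a tRNA gene in the window and the pathway genes named without a promoter summit fell outside that rule and were chosen after their values were seen. Planned promoter sequences and motif searches, and the genomic input, were not analysed here.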

Additional observations from a re-analysis of the deposited data

How the results depend on the processing

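Of 85 recomputed values, 58 stayed within 1.5 times of the reported ones. Some of these could hardly have moved, so the tally is no measure of robustness. No member lay within 10 kb of a chromosome end, so leaving such members out dropped none. The Hst1 counts for independent genes repeated those for all members at every setting, and the counts for genes inside introns and for the mock IP began at 0. The count of genes with an Hst1 summit, 3 of 82, went to 1 with summits inside the gene, 9 within 1000 bp, 6 with any part or at least 50 bp of a peak, and 1 in an Hst1 list shortened to as many peaks as the Sir2 list. The same values, 1, 9, 6, 6 and 1, held for independent genes. The Sir2 count of 1 went to 0 with summits inside the gene, within 250 bp and at a −log10 q minimum of 10, to 3 within 1000 bp and to 2 with any part of a peak. The SNR78 peak, at a −log10 q of 9.95, was thus just under that limit. For all nuclear genes, no counts were made inside the gene, within 250 bp, with at least 50 bp of a peak, at that limit or in the shortened list. The counts under those settings therefore have no background here. Hst1 coverage of 2.53% went to 1.53% at a −log10 q minimum of 10 and to 1.24% in the strongest 50% of peaks. Sir2 coverage of 0.259% went to 0% inside genes, 0.0174% within 250 bp, 0.146% within 1000 bp and 0% at a −log10 q minimum of 10. Hst1 summits upstream of a snoRNA gene numbered 0 inside genes (by construction), 4 within 1000 bp, 0 at a −log10 q minimum of 10 and 0 in the strongest 50%. The median fold at members was 3.80 at that minimum and 3.80 for the strongest 50%, both of which keep only the stronger SNR48 peak and SNR45. The counts for genes inside introns and for the mock IP were 0 in every alternative run. No paired analysis was possible because each IP had 1 list. Leaving out a replicate was not possible for the same reason.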
